A study of Drosophila melanogaster with 12 samples.

Results

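The cecropin genes of Drosophila encode short antimicrobial peptides, and 4 of them were followed here in larval blood cells: CecA1, CecA2, CecB and CecC. They were chosen by name, as the members of the family that act as inducible genes of the systemic response, and they are 4 of the 10392 genes of the table that merged all unwounded, wounded and 24 hr wasp-infested cells. The Drop-seq tables of the 24 hr and 48 hr infested larvae listed 13313 and 14597 genes, and all 4 members were present in each. In the gene models of the BDGP6 assembly, the genes lay in 1 cluster on chromosome 3R, from 30210874 to 30216938, a span of 6065 bases. CecA1 (FBgn0000276) occupied 30210874 to 30211273 and CecA2 (FBgn0000277) 30212156 to 30212568, both on the plus strand. CecB (FBgn0000278) lay on the minus strand at 30213315 to 30213797 and CecC (FBgn0000279) on the plus strand at 30216484 to 30216938. Each gene had 2 exons and 192 coding bases, and none overlapped another gene.

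Cecropins are secreted amphipathic peptides that permeabilize the membranes of bacteria, mainly Gram-negative ones. Their genes are induced through the Imd pathway, in which peptidoglycan recognition proteins signal through the adaptor Imd to the NF-kappaB factor Relish. The fat body is the main source of the circulating peptides during systemic infection, and hemocytes, the insect blood cells, also transcribe the genes. Larval hemocytes comprise plasmatocytes, which are phagocytic, crystal cells, which carry the enzymes of melanization, and lamellocytes, which encapsulate parasitoid eggs.

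The study profiled single hemocytes bled from larvae, each library holding cells pooled from many animals. Unwounded and wounded libraries (4 of each) came from larvae that carried the plasmatocyte driver Hml-GAL4Δ with UAS-2X EGFP transgenes. A tungsten needle was used to wound at 96 hr after egg laying, and the cells were bled 24 hr later and passed through an Optiprep gradient. In both groups 10X Chromium gave replicates 1 and 2, and inDrops gave replicates 3 and 4. The labels give the inDrops unwounded and wounded libraries of the same number as multiplexed in 1 sample. Infested libraries (3 at 24 hr and 3 at 48 hr) came from OreR larvae exposed to the parasitoid wasp Leptopilina boulardi at 72 hr after egg laying, and were made with Drop-seq without the gradient. The labels give their ages as 96 hr and 128 hr after egg laying, and the latter is more than 48 hr after the stated age at infestation. The study's methods state an age at dissection that lies 48 hr after infestation, so the label and the methods disagree on the age at bleeding. Infested and unwounded larvae therefore differed in strain, age, isolation and technology as well as infestation, and these cannot be told apart.

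Depth differed among the libraries. Unwounded libraries held 492 to 2043 cells and 623998 to 5995893 unique molecular identifiers (UMIs, each counting 1 captured transcript), wounded libraries 1782 to 2895 cells and 5185421 to 9873165 UMIs, and the 24 hr infested libraries 181 to 4013 cells and 2696915 to 17452765 UMIs. The 48 hr libraries held 1867 to 3113 cells and 16006209 to 27556002 UMIs. The summed level of the pan-hemocyte markers was 526 to 2341 CPM (UMIs per 1000000 UMIs of the library) in the merged libraries, and that of 6 fat body markers 0 to 86.1 CPM. Barcodes occurred in more than 1 library in 0 to 4 cases per pair of 10X libraries, 6 to 44 per pair of inDrops libraries and 21 to 34 per pair of 48 hr libraries.

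In unwounded larvae, cecropin transcripts were close to the detection limit. The 4 genes together gave 9, 13, 62 and 2 UMIs in replicates 1 to 4, or 6.85, 3.05, 10.3 and 3.21 CPM. CecC accounted for 77 of these 86 UMIs, CecA1 for 5, and CecA2 and CecB for 2 each. CecA2 and CecB were seen only in replicate 3 among the unwounded libraries, and 0 UMIs in the other libraries allowed levels of up to 0.704 to 4.81 CPM (3 counts of the library total). No unwounded cell held more than 3 cecropin UMIs.

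After wounding, cecropin transcripts rose about 24.1-fold, nearly all of them CecC. The summed level was 93.1, 52.0, 197 and 364 CPM in wounded replicates 1 to 4, a mean of 176 ± 139 (SD, n = 4) against 5.86 ± 3.46 CPM (SD, n = 4) in the unwounded libraries. The lowest wounded library lay above the highest unwounded one, so the groups did not overlap. Both inDrops wounded libraries were above both 10X wounded libraries.

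CecC was measured at 6.85, 2.82, 9.01 and 3.21 CPM in the unwounded libraries and at 84.9, 48.1, 177 and 349 CPM in the wounded ones. In edgeR's quasi-likelihood test with technology as a covariate and Benjamini-Hochberg adjustment over all genes, CecC rose by 4.60 ± 0.45 (log2 fold change ± SE, adjusted p = 0.0012) and the sum of the 4 genes by 4.59 ± 0.43 (adjusted p = 0.00088). Without the technology covariate the call on the sum was lost. CecA2 rose by 4.49 ± 0.63 (adjusted p = 0.015), from 0, 0, 0.334 and 0 to 2.31, 2.23, 5.21 and 5.76 CPM. Its call was lost when any of 5 single libraries was left out (4.22 to 6.65 over all libraries left out, adjusted p 0.045 to 0.32), namely unwounded replicate 2, 3 or 4 or wounded replicate 3 or 4.

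CecA1 and CecB were too low to pass the count filter of this test. CecA1 had 0, 0.235, 0.667 and 0 CPM in the unwounded libraries and 1.81, 0.506, 5.59 and 4.32 CPM in the wounded ones, and CecB had 0, 0, 0.334 and 0 against 4.12, 1.11, 9.64 and 4.71 CPM. Without the filter their log2 fold changes were 2.96 ± 0.84 and 5.00 ± 0.94, and neither was called (edgeR, adjusted p = 0.79 and 0.19). Over pooled counts, wounded cells held 6.61 times the unwounded level of CecA1 (95% counting interval 2.72 to 20.9), 22.7 times that of CecA2 (6.13 to 190), 25.9 times that of CecB (7.01 to 216) and 25.2 times that of CecC (20.1 to 31.9). These exact intervals cover counting error only, and those of CecA2 and CecB are wide because each rests on 2 unwounded UMIs.

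Of the 7415 genes tested after wounding, 26 were called higher (0.351%), CecA2 and CecC among them. With 2 unwounded UMIs, CecA2 passed the count filter only through the wounded libraries, so the number of members called is not read against that share. No gene was called lower by edgeR at an adjusted p under 0.05, with 62 lower at an unadjusted p under 0.05 and 5 called lower by DESeq2. With the replicate number as a block, which pairs the unwounded and wounded libraries, the sum rose by 4.38 (adjusted p = 4.4e-06, edgeR) and 113 genes were called, 87 higher and 26 lower. Within technologies, the sum was higher by 3.98 in the 10X libraries (edgeR adjusted p = 1.0, with 2 libraries a group and 0 genes called) and by 5.03 in the inDrops libraries (adjusted p = 0.010). The wounding effect itself differed between inDrops and 10X by 1.00 ± 0.83 (edgeR interaction term, adjusted p = 1.0, with 0.0539% of genes called). The summed fat body markers were 13.7 to 50.6 CPM in the wounded and 14.4 to 86.1 CPM in the unwounded libraries, while lamellocyte markers summed to 15.2 to 143 CPM in unwounded and 159 to 847 CPM in wounded libraries; their part in the result was not tested.

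Infestation with wasps was accompanied by a larger rise, in which all 4 genes took part. At 24 hr the summed level in the merged table was 1646, 4675 and 497 CPM in replicates 1 to 3, a mean of 2273 ± 2158 (SD, n = 3). Every infested library lay above every wounded and unwounded library. The infested libraries also spread widely, with replicate 2 the highest and replicate 3 the lowest.

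CecC was at 700, 1828 and 213 CPM in the 3 infested libraries and rose by 7.37 ± 0.87 over unwounded (log2 ± SE, edgeR adjusted p = 0.00061). CecA2 was at 414, 1565 and 138 CPM and rose by 12.06 ± 1.27 (adjusted p = 0.00035). CecA1 was at 294, 813 and 65.4 CPM (9.99 ± 1.12, adjusted p = 0.00047) and CecB at 238, 469 and 80.1 CPM (10.57 ± 0.98, adjusted p = 0.00020). The fitted values of CecA1, CecA2 and CecB depend on a small prior count, since the unwounded libraries held only 5, 2 and 2 of their UMIs. Pooled over libraries, the ratio to unwounded was 147 for CecC (95% counting interval 117 to 186), 966 for CecA1 (414 to 2974), 1556 for CecB (431 to 12850) and 4615 for CecA2 (1277 to 38107).

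All 4 members were called higher, as were 15.5% of the 6760 genes tested. With 5, 2 and 2 unwounded UMIs, CecA1, CecA2 and CecB passed the count filter only through the infested libraries, so their number is not read against that share. It shares its unwounded libraries with the wounding comparison. The lamellocyte markers were at 604 to 2119 CPM in the infested libraries and all 3 rose, whereas the plasmatocyte genes Hml, Pxn and eater fell (-2.77, -4.30 and -2.19 on the log2 scale) and the fourth, NimC1, was at 0.21 (adjusted p = 0.69, edgeR). Of 3 crystal cell markers, lz fell (-4.03) and PPO1 and PPO2 were at -4.13 and -4.45 without passing. The part of these shifts in the cecropin rise was not tested. Fat body markers summed to at most 1.11 CPM in the infested libraries of the merged table. In such sums a change in the cells sampled and a change in RNA per cell cannot be told apart.

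**Figure D1:**
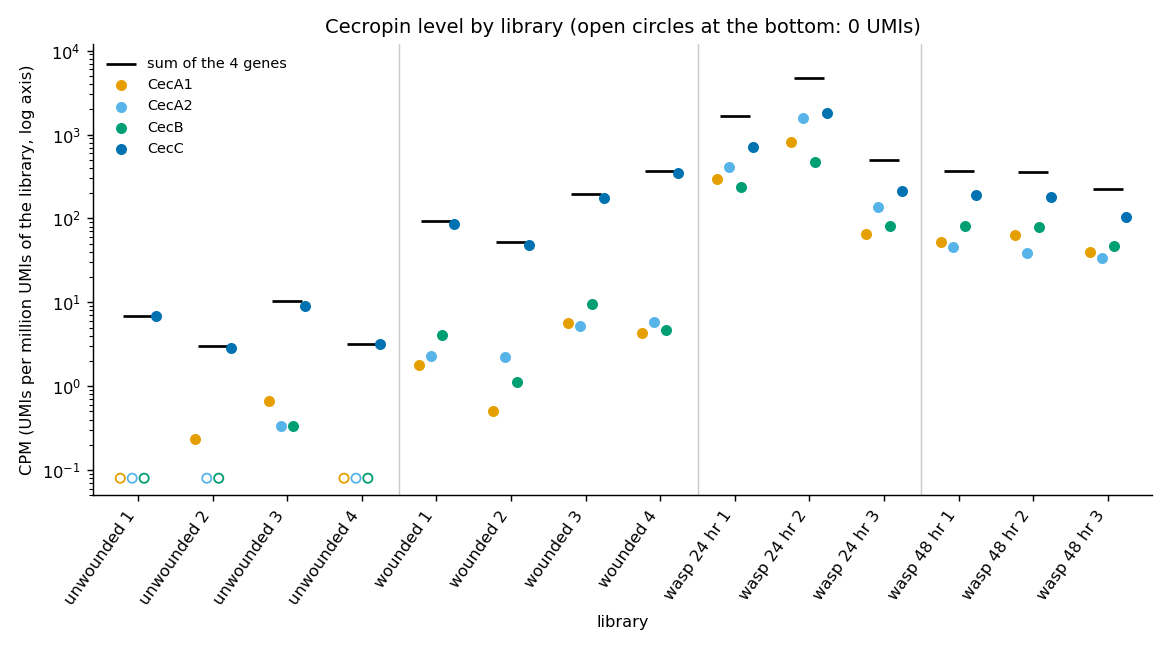
Level of CecA1, CecA2, CecB and CecC (dots) and of their sum (black bars) in each of the 14 libraries, in CPM on a log axis; open circles mark genes with 0 UMIs. CecC tracks the sum in the unwounded and wounded libraries, and all 4 genes are at 33.7 CPM or more in every infested library.

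By 48 hr after infestation, cecropin transcripts had fallen. In the Drop-seq tables, whose cells were filtered alike, the sum was 1465, 4413 and 464 CPM at 24 hr and 369, 358 and 224 CPM at 48 hr. The lowest 24 hr library was above the highest 48 hr library, and the 48 hr libraries lay close together (317 ± 80.9 CPM, SD, n = 3). In edgeR's test across 7998 genes, the sum fell by 2.86 ± 0.81 on the log2 scale (adjusted p = 0.031).

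CecA2 fell most, by 4.21 ± 0.93 (adjusted p = 0.013, edgeR), from 376, 1478 and 129 CPM to 46.0, 38.7 and 33.7 CPM. CecA1 fell by 2.92 ± 0.86 (adjusted p = 0.035) and CecC by 2.55 ± 0.78 (adjusted p = 0.040). CecC was at 616, 1722 and 199 CPM at 24 hr and at 188, 178 and 103 CPM at 48 hr. Without infested replicate 2 at 24 hr, or without any 1 of the 48 hr libraries, CecA1 and CecC lost their calls (adjusted p 0.060 to 0.13), and CecA2 did without 48 hr replicate 2 or 3 (0.058). CecB, at 214, 446 and 74.8 CPM and then 82.2, 78.6 and 47.5 CPM, changed by -1.91 ± 0.64 and did not pass (adjusted p = 0.054), its groups overlapping. It passed without 24 hr replicate 1 or 3 (-2.13 and -2.35, adjusted p = 0.047 and 0.019).

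In this comparison 15.8% of genes were called lower, and 3 of the 4 cecropins were. The call on the sum was lost when any single 48 hr library was left out (adjusted p up to 0.11), and without infested replicate 2 at 24 hr the fall was 1.41 (adjusted p = 0.039). Lamellocyte markers moved from 562 to 1649 CPM at 24 hr to 13754 to 17207 CPM at 48 hr, and the summed fat body markers from 0.513 to 1.97 CPM to 36.2 to 96.2 CPM. Their part in the fall was not tested.

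The share of cecropin UMIs that each gene contributed differed between wounded and infested libraries. In wounded cells CecC made up 91.2%, 92.6%, 89.6% and 95.9% of the cecropin UMIs in replicates 1 to 4. At 24 hr of infestation its share was 42.5%, 39.1% and 42.8%, and that of CecA2 was 25.2%, 33.5% and 27.9%. CecA1 then held 13.2% to 17.9% and CecB 10.0% to 16.1%.

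At 48 hr CecC took 51.0%, 49.7% and 45.9%, CecB 22.2%, 21.9% and 21.2%, and CecA2 12.5%, 10.8% and 15.03%. Between the Drop-seq tables, the CecA2 share was 16.2 points lower at 48 hr, the CecB share 8.18 points higher and the CecC share 7.54 points higher, each with groups that did not overlap. Each had an exact permutation p of 0.1, which is the smallest that 3 libraries against 3 can give (adjusted over the 4 genes, 0.133, two-sided). The CecA1 share was 16.6% at 48 hr and 16.1% at 24 hr (exact permutation p = 0.6). This composition test was chosen after the values were seen.

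Shares of UMIs are counts of transcripts and were not divided by length. The 4 transcripts are of similar length, 339 to 425 exonic bases, and dividing by it gave CecC 89.5% to 95.8% in wounded libraries and 37.4% to 41.7% in 24 hr infested ones. The genes are close copies of each other, so reads could have been shared or dropped among them, and the level of any single member is less certain than the sum. Technology and annotation also changed between the wounded and infested libraries.

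**Figure D2:**
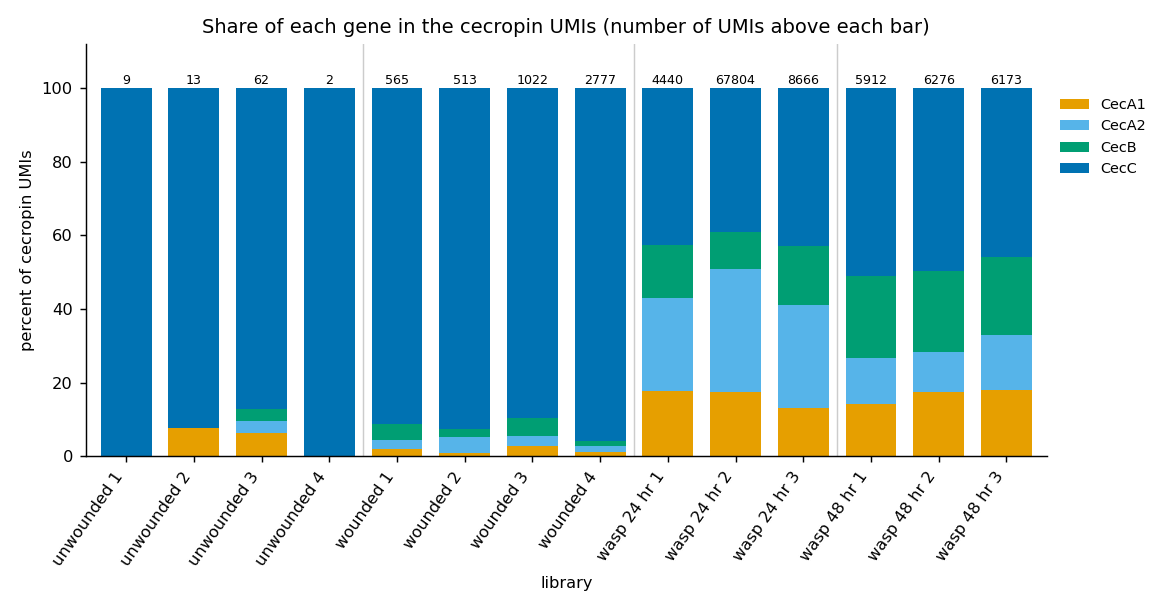
Percent of the cecropin UMIs of each library that came from each of the 4 genes, with the number of cecropin UMIs above each bar. CecC fills 89.6% to 95.9% of the wounded bars and 39.1% to 51.0% of the infested ones.

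Cecropin transcripts were detected in a minority of wounded cells and in most cells of infested replicates 1 and 2 at 24 hr. A cecropin UMI was found in 1.17%, 1.24%, 2.64% and 0.407% of unwounded cells and in 9.34%, 4.05%, 15.7% and 22.5% of wounded cells. At 24 hr of infestation the share was 68.0%, 80.9% and 39.8%, and at 48 hr 33.9%, 35.5% and 34.1%. The 48 hr libraries thus lay close together and below every 24 hr library.

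Because infested cells were sequenced more deeply, each cell was also thinned to 1000 UMIs. The thinned share of cells with a cecropin UMI was 0.332% to 1.03% in unwounded, 1.84% to 14.02% in wounded, 23.7% to 69.6% in 24 hr and 13.1% to 18.2% in 48 hr libraries. Thinning left out 493 unwounded, 18 wounded, 51 infested 24 hr and 1 infested 48 hr cells with fewer UMIs. The thinned share was 6.84 points higher in wounded than in unwounded libraries (exact permutation test, two-sided, p = 0.029, adjusted over 3 comparisons 0.086), and 47.1 points higher at 24 hr of infestation (exact p = 0.057, adjusted 0.086). Between the Drop-seq tables it was 30.3 points lower at 48 hr than at 24 hr (exact p = 0.1, adjusted 0.1). Each of these is the smallest p its design allows.

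Cecropin UMIs were unevenly spread over cells. In wounded libraries the top 1% of all cells carried 47.6%, 82.1%, 37.7% and 29.9% of all cecropin UMIs. In replicate 2 of the wounded group, 5 cells held at least 50% of the 513 UMIs, and 1 cell reached 85. Cells with 20 or more cecropin UMIs numbered 3, 6, 6 and 25 in the wounded libraries.

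In infested libraries the top cells carried smaller shares of the UMIs than in wounded ones. Cells with 20 or more cecropin UMIs numbered 63, 894 and 85 at 24 hr and 86, 93 and 70 at 48 hr, and single cells reached 337 UMIs at 24 hr in the merged table. The top 1% of cells carried 6.73%, 7.21% and 18.4% of the UMIs at 24 hr and 26.01%, 19.01% and 21.9% at 48 hr. Put another way, at least 50% of the UMIs lay in 0.236% to 2.45% of wounded cells, 5.31% to 13.01% of 24 hr infested cells and 3.16% to 4.62% of 48 hr infested cells. Both measures also depend on how many cecropin UMIs a library held. These numbered 513 to 2777 in wounded, 4440 to 67804 in 24 hr and 5912 to 6276 in 48 hr libraries. The part of this level in the contrast was not tested.

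**Figure D3:**
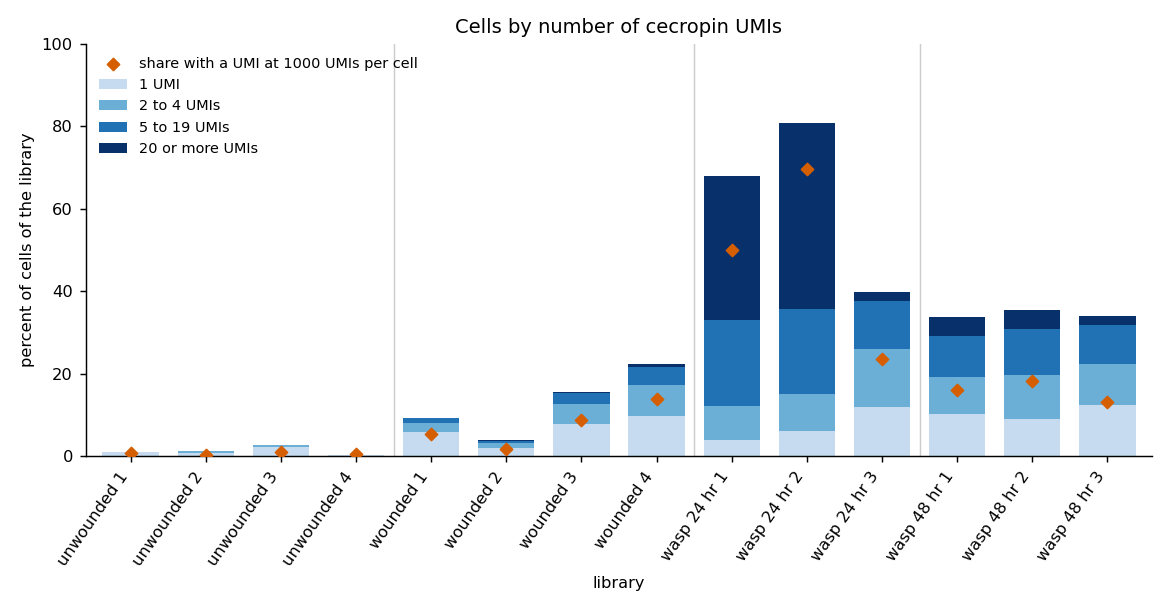
Percent of the cells of each library that held 1, 2 to 4, 5 to 19, or 20 or more cecropin UMIs (stacked bars), and the share with a cecropin UMI after thinning to 1000 UMIs per cell (diamonds). Wounded bars reach 4.05% to 22.5%, and the darkest class is widest in 24 hr infested replicates 1 and 2.

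The members were often found in the same cells. In infested replicate 2 at 24 hr, 94.5% of the 1136 cells with CecA1 also held CecC, against 41.4% of cells without CecA1. In replicate 3, the library with the lowest cecropin level, the corresponding values were 73.5% and 20.0%. At 48 hr, 66.7% to 76.3% of the cells with CecA1 held CecC, against 17.4% to 19.6% of the others. Cells with a member were also deeper, with a median of 4542 UMIs against 3204 in infested replicate 3, and the part of depth in this joint detection was not tested.

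In cells with 20 or more cecropin UMIs, all 4 members were detected in 77.8%, 65.0% and 71.8% of cells at 24 hr and in 61.6%, 62.4% and 65.7% at 48 hr. Among the 40 such wounded cells, 1 held all 4. CecA1, CecA2 and CecB each made up 0.975% to 4.89% of the cecropin UMIs of the wounded libraries. The part of this composition in the contrast was not tested. The CecC share in these wounded cells was a median of 100%, 94.0%, 87.7% and 100% in replicates 1 to 4.

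The distribution over cell types was then read from the 17 clusters that the authors deposited with the merged table. The authors clustered these cells on the most variable genes, which are not listed and may include the cecropins. The following levels therefore describe the clusters and are no test of them. PM7, a plasmatocyte cluster, had the highest cecropin level in all 4 wounded libraries, at 1154, 1628, 2713 and 4142 CPM, and in infested replicates 1 and 2 at 3505 and 10036 CPM. PM7 cells made up 0.730% to 3.83% of wounded cells. In infested replicate 3, PM6 came first at 2538 CPM and PM7 next at 2082 CPM, with 19 and 12 cells.

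PM6 was at 511 and 791 CPM in the 2 wounded libraries where it had at least 10 cells, and at 3029, 5672 and 2538 CPM in the infested ones. Together, PM6 and PM7 held 27.3%, 31.6%, 21.3% and 54.7% of the cecropin UMIs of the wounded libraries, and 30.9%, 44.3% and 5.15% of those of the infested ones. Most cecropin UMIs therefore lay in other clusters in 6 of these 7 libraries. When PM6 and PM7 cells were left out, the summed level still rose with wounding by 4.09 ± 0.38 (edgeR, adjusted p = 0.00081) and at 24 hr of infestation by 8.23 ± 0.92 (adjusted p = 0.00046), an alternative added after the values were seen.

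LM1, a cluster that the paper proposes as an intermediate state of lamellocytes, was the main other site by number of UMIs. It was at 156, 280, 333 and 508 CPM in wounded replicates 1 to 4 and at 2063, 5277 and 1248 CPM in the infested ones. LM1 gave 54.4% of the cecropin UMIs of wounded replicate 2 and 56.6% of those of infested replicate 1. Of its cells, 15.7% to 38.5% held a cecropin UMI after wounding and 75.6% to 97.0% after infestation. The cluster of mature lamellocytes, LM2, was at 0, 255 and 333 CPM in wounded replicates 1, 3 and 4. In infested replicates 2 and 3 it was at 4019 and 767 CPM.

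Plasmatocyte clusters PM1 and PM3 differed from each other. PM1, the largest cluster of the wounded group as a whole, was at 30.1, 2.85, 37.4 and 88.3 CPM in wounded libraries, while PM3 was at 192, 29.0, 388 and 736 CPM. PM3 was thus above PM1 in every wounded library. In infested libraries PM1 was at 1301, 1618 and 279 CPM, above any wounded value of PM1, and PM3 at 3619 and 1028 CPM in the libraries where it had at least 10 cells.

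Crystal cells were the lowest of the hemocyte classes in every wounded library. The crystal cell clusters summed to 14.2, 2.89, 76.8 and 49.0 CPM in replicates 1 to 4, and the plasmatocyte clusters to 95.5, 29.1, 167 and 365 CPM. The lamellocyte clusters, mostly LM1 cells, summed to 133, 263, 322 and 488 CPM. CC2 was at 10.1, 2.19, 77.4 and 59.8 CPM in wounded libraries, where 2.70%, 2.56%, 7.56% and 12.9% of its cells held a cecropin UMI at median depths of 6538, 11404, 2521 and 2945 UMIs. These shares were below those of the whole libraries, 9.34%, 4.05%, 15.7% and 22.5% at median depths of 1916 to 3682. In infested replicates 2 and 3, CC2 reached 765 and 267 CPM with 38.3% and 28.7% of cells positive. Cells that the authors labelled non-hemocyte in infested replicate 1 were at 29.0 CPM, and 19.2% of these 26 cells held a UMI at a median depth of 8752. Shares at or below that value in infested replicate 1 are therefore read as background. No other library of the merged table had at least 10 such cells, so background was not read elsewhere.

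**Figure D4:**
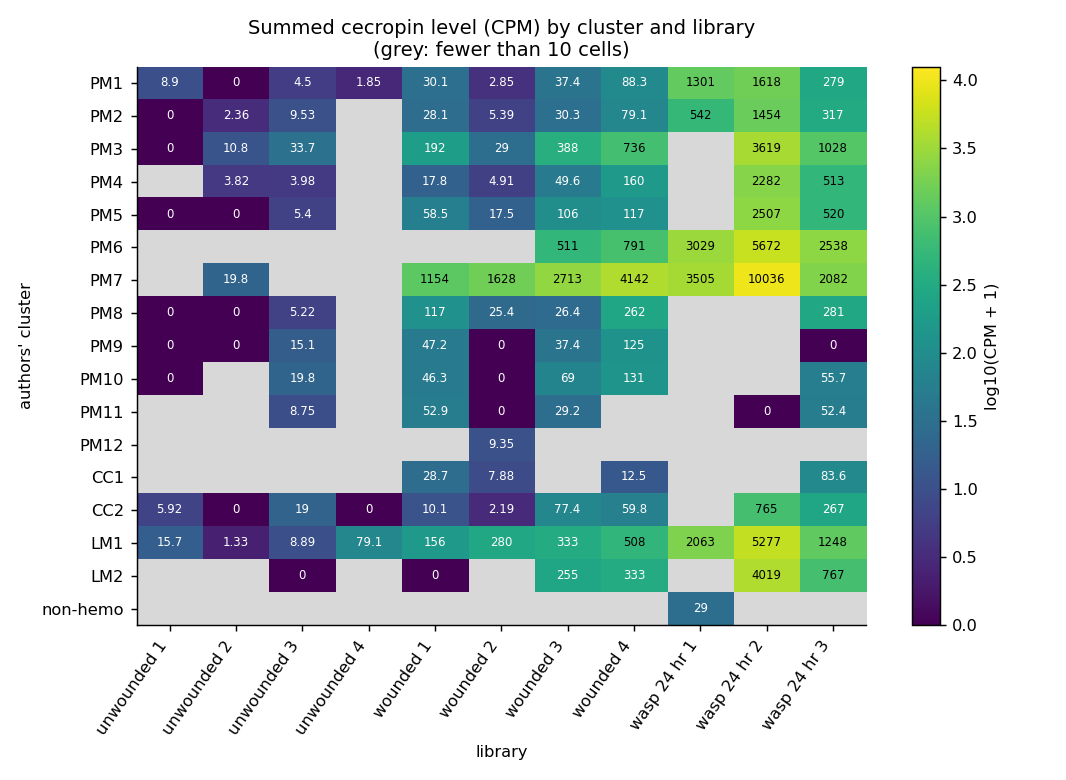
Summed cecropin level, in CPM, of each authors' cluster (PM, plasmatocyte; CC, crystal cell; LM, lamellocyte) in each library of the merged table, coloured on a log scale; grey cells held fewer than 10 cells. PM7, LM1 and, where it was read, PM6 are high in the wounded and infested columns, and CC clusters remain below them. PM3 lies above LM1 in wounded replicates 1, 3 and 4.

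The prevailing member also depended on the cluster in infested larvae. CecC led in all 14 sums of a wounded library and cluster with at least 100 cecropin UMIs. Of 26 such sums in infested larvae, CecC led in 17 and CecA2 in 9. In PM6, CecA2 made up 42.0%, 47.9% and 52.7% of the cecropin UMIs of infested replicates 1 to 3, and CecC 32.1%, 31.5% and 23.7%.

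PM4 resembled PM6, with CecA2 at 50.6% in both infested libraries that could be read. LM1 was the reverse, with CecC at 47.7%, 48.3% and 51.7% and CecA2 at 19.2%, 22.4% and 14.98%. In wounded libraries the PM6 sums were instead 92.4% and 92.9% CecC. The order of CecA2 and CecC in PM6 and LM1 therefore held in each of the 3 infested libraries. As the clusters may have been built from these genes, it is given without a test.

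Genes of other antimicrobial peptides were called beside the cecropins in each comparison. Of 12 such genes listed, 6 could be tested after wounding and 4 rose, where 0.351% of all genes were called higher: Drs, which encodes the antifungal drosomycin, AttD, an attacin, DptB, a diptericin, and Mtk, which encodes metchnikowin. Drs went from 3.21 to 16.4 CPM in unwounded to 803 to 1524 CPM in wounded libraries (log2 fold change 6.47 ± 0.39, edgeR adjusted p = 8.1e-05). DptB rose by 9.38 ± 0.84 and AttD by 6.98 ± 0.58. Mtk, at 22.4 to 155 and then 546 to 3343 CPM, rose by 4.12 ± 0.70 (adjusted p = 0.040). Leaving out any 1 of 6 libraries (unwounded 1, 3 or 4, wounded 1, 3 or 4) ended the call on Mtk, and leaving out unwounded replicate 3 that on DptB (10.25, adjusted p = 0.11). AttD and DptB passed the count filter through the wounded libraries, so the count over the genes tested is a description.

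After infestation the attacins AttA, AttB and AttD, drosocin (Dro) and Drs rose, by 2.47 (Drs) to 10.29 (Dro) on the log2 scale. They were 5 of 7 tested, beside 15.5% of all genes called higher. With 2, 5 and 2 unwounded UMIs, AttA, AttD and Dro passed the count filter through the infested libraries, so this count is a description. Dro was at 0 to 0.235 CPM in unwounded and 108 to 319 CPM in infested libraries. The calls on AttB and Drs were lost without infested replicate 2 (4.20 and 1.11, adjusted p = 0.059 and 0.12). Mtk fell by 2.88 ± 0.87 (adjusted p = 0.033, edgeR), from 22.4 to 155 CPM to 1.26 to 30.4 CPM, whereas it had risen after wounding. In this comparison 16.9% of genes were called lower. The fall of Mtk was not called (adjusted p 0.050 to 0.11) when unwounded replicate 1, 2 or 3 or infested replicate 2 or 3 was left out. By 48 hr AttA, AttB and Dro had fallen by 4.46, 3.47 and 3.85, 3 of 8 tested where 15.8% of all genes were called lower.

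Genes of the Imd pathway were taken from 3 lists. After wounding, 0 of 4 recognition, 13 signalling and 8 inhibitor genes passed edgeR's test, with 3 of these 25 at an unadjusted p under 0.05 and 0 called by DESeq2. The edgeR fit had technology as covariate, and values of these genes with the replicate number as a block are not given. Relish (Rel), the transcription factor of the pathway, was at 24.0 to 96.7 CPM in unwounded and 62.8 to 220 CPM in wounded libraries, 0.68 ± 0.40 on the log2 scale (adjusted p = 1.0). At 24 hr of infestation Rel reached 342 to 873 CPM and rose by 3.25 ± 0.54 (adjusted p = 0.0026). Of 12 signalling genes tested, the kinase subunit gene key (1.21 ± 0.40, adjusted p = 0.046) was the only other one called, so that 2 of 12 passed against 15.5% of all genes called higher. The call on key was lost in 6 of 7 fits with 1 library left out. None of the 4 recognition genes passed. Of 8 inhibitors, 3 rose beside the same 15.5%, namely pirk (4.94 ± 0.72), PGRP-LB, an amidase that degrades peptidoglycan (5.22 ± 0.43), and PGRP-LF (2.77 ± 0.43). With 23 unwounded UMIs, PGRP-LB passed the count filter through the infested libraries, so this count of inhibitors is a description.

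Between 24 hr and 48 hr the Imd genes moved in both directions. Rel fell by 1.97 ± 0.46, pirk by 0.77 ± 0.18, PGRP-LB by 2.01 ± 0.17 and PGRP-LF by 0.72 ± 0.21 (edgeR, all adjusted p under 0.05). The call on Rel was lost without any 1 of the 48 hr libraries (adjusted p up to 0.067), that on pirk without 48 hr replicate 1 or 2, and that on PGRP-LF in 5 of 6 such fits. The receptor gene PGRP-LA rose by 1.00 ± 0.21. So did 6 of 13 signalling genes, imd (0.82), Fadd (0.63), ben (0.66), Tak1 (0.81), key (0.70) and IKKbeta (1.26), and the inhibitors casp (0.60) and CYLD (1.38), in a comparison that called 20.1% of genes higher. Of these rises, imd and key kept their calls in only 2 of 6 fits with 1 library left out (adjusted p up to 0.14 and 0.11), and Fadd and ben in 5 of 6 (up to 0.067 and 0.071).

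Which other genes are transcribed in the cells that carry cecropins was asked within libraries. In each of 7 libraries (4 wounded, 3 infested at 24 hr), cells with at least 2 cecropin UMIs were summed as cecropin-high and those with 0 as cecropin-negative. High cells numbered 82, 41, 142 and 366 in wounded and 114, 1477 and 1118 in infested libraries. High cells were deeper than negative cells in every library, with medians of 2448 to 17467 UMIs against 1878 to 9998.

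Of 6653 genes tested with library as a block, 145 were called higher (2.18%) and 67 lower (1.01%) in the cecropin-high cells, and 131 of these 212 (3.19% of genes tested) pointed 1 way in all 7 libraries. With at least 1 UMI as the limit for high cells, 2 genes were higher and 0 lower. That fit also took in unwounded replicates 2 and 3, with 10 and 54 high cells, so it does not show the limit alone. Leaving out 1 library of the main fit gave 71 to 198 higher and 23 to 106 lower. Of the 12 other antimicrobial peptide genes, 8 could be tested and 7 were called higher, beside 2.18% of all genes tested. A gene could pass the count filter through the high cells alone, so this count and the like counts below are descriptions. AttD was at 353 to 630 CPM in high and 0.324 to 30.8 CPM in negative cells of wounded libraries, and at 11.5 to 68.4 against 0 to 19.1 CPM in infested ones, higher by 4.73 ± 0.74 (edgeR adjusted p = 0.0042). DptB was higher by 4.45 ± 0.71, AttB by 3.43 ± 0.71 and Dro by 1.70 ± 0.25. In the infested libraries alone DptB failed the count filter, and Mtk, also among the 7, was at 0.50 (edgeR adjusted p = 0.84).

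Drs, at 2.17 ± 0.58, missed the threshold (adjusted p = 0.065). Members of the peptidoglycan recognition family followed: PGRP-SD, a receptor that senses peptidoglycan, by 4.02 ± 0.59, and PGRP-SC2, an amidase that dampens the pathway, by 3.90 ± 0.50. Rel was higher by 1.30 ± 0.24 (adjusted p = 0.010), by 1.78 in wounded libraries alone and by 0.62 in infested ones alone (edgeR adjusted p = 0.38, not called). The difference between these 2 values was not called (-1.15, edgeR adjusted p = 0.15). The upstream genes imd, key and Tak1 were at 0.17, 0.23 and 0.23 and were not called. In wounded libraries alone key and Tak1 had the opposite sign (-0.056 and -0.15). PGRP-SC2 rested on few UMIs, 2 to 16 in the negative cells of each library.

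CG43175, among the 10 genes with the largest rise, was at 296 to 2788 CPM in high and 80.0 to 475 CPM in negative cells (2.27 ± 0.22, adjusted p = 0.00041). CG18754 (3.73), CG31219 (1.77) and pyr, which encodes a fibroblast growth factor ligand (1.37), completed the list. When only wounded libraries were tested, 306 of 6954 genes were higher (4.4%) and all 7 antimicrobial peptide genes tested were among them. With only the infested libraries 12 of 6354 genes were higher (0.189%), and 1 of 7 antimicrobial peptide genes was, AttA (2.45 ± 0.19, adjusted p = 0.0055). For the difference between infested and wounded libraries itself, 65 of 6653 genes (0.977%) were called lower in the infested ones. AttD, with an interaction of -3.94 ± 0.94, was not among them (adjusted p = 0.071).

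Among genes lower in cecropin-high cells, the string gene stg, a Cdc25 phosphatase that drives entry into mitosis, was at 82.5 to 398 CPM in high and 239 to 575 CPM in negative cells of wounded libraries (-0.98 ± 0.15, adjusted p = 0.0046, edgeR over 7 libraries). E(spl)m3-HLH, a Notch target, was lower (-2.33 ± 0.33), from 18.8 to 33.9 CPM in negative to 3.86 to 23.3 CPM in high cells of wounded libraries. The other 8 of the 10 largest falls were hid, a cell death gene (-2.04), the metallothionein MtnD (-1.89), ImpL2, a secreted insulin-binding protein (-1.74), kar (-1.66), CG32816 (-1.40), Jheh1, a juvenile hormone epoxide hydrolase (-1.10), Glt (-1.05) and the non-coding RNA gene lncRNA:CR33963 (-1.04).

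Several of these calls rested on single libraries. The calls on AttB (adjusted p up to 0.058 without wounded 1, 3 or 4), Mtk (wounded 1 or 4), Mtkl (any wounded library), pyr (infested 3, adjusted p = 0.052), hid (infested 2, -1.45, adjusted p = 0.11), MtnD (infested 2, wounded 1, 2 or 4) and lncRNA:CR33963 (infested 2 or 3, adjusted p up to 0.14) were lost without the libraries given.

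MtnD lost its call when negative cells were limited to the depth range of the high cells (-0.40, adjusted p = 0.61), and DptB when PM6 and PM7 cells were left out (1.05, adjusted p = 0.19). The plasmatocyte gene Pxn was lower in high cells (-0.78, adjusted p = 0.0042), and the lamellocyte gene atilla was at 0.92 (adjusted p = 0.38). The crystal cell markers lz, PPO1 and PPO2 were at -2.52, -3.14 and -2.89 without passing (adjusted p = 0.0504, 0.089 and 0.087, edgeR), and E(spl)m3-HLH is also known from crystal cells. Their part in the differences was not tested.

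At 48 hr the same division of cells gave 777 genes higher (10.6%) and 821 lower (11.2%) of 7326. The antimicrobial peptide genes AttA, AttB, AttD, Dro, Drs and Mtkl, 6 of 8 tested, were higher in cecropin-high cells by 1.45 to 3.92. DptB (-0.27) and Mtk (0.20) were not called (edgeR adjusted p = 0.86 and 0.71). Drs was at 161, 224 and 211 CPM in high and 23.5, 43.2 and 40.2 CPM in negative cells (2.54 ± 0.079, edgeR adjusted p = 1.1e-07). Rel was higher by 1.65 ± 0.065 and pirk by 1.98 ± 0.057. The signalling genes imd (0.27), eff (0.17) and akirin (0.12) were also called higher. The calls on imd and akirin were not kept in every fit with 1 library left out. The 4 plasmatocyte markers Hml, NimC1, Pxn and eater were all lower (-1.82 to -1.06). So were the crystal cell markers lz (-1.48), PPO1 (-2.35) and PPO2 (-2.17), 4 of 5 fat body markers tested (-1.25 to -0.95) and the gut protease gene Jon99Ciii (-6.36). High cells were also deeper (medians of 8182 to 9795 against 5143 to 6123 UMIs); their part in these differences was not tested.

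**Figure D5:**
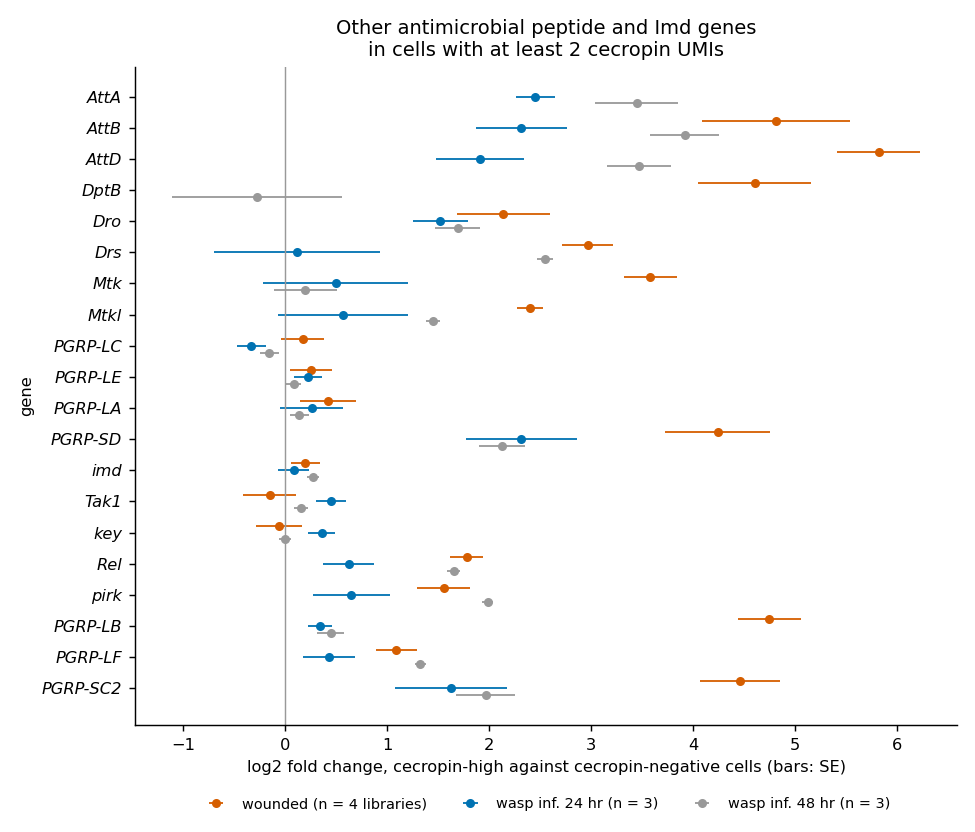
Log2 fold change (dots) with its SE (bars) of other antimicrobial peptide genes and Imd pathway genes between cells with at least 2 cecropin UMIs and cells with 0, in wounded (n = 4 libraries), 24 hr infested (n = 3) and 48 hr infested (n = 3) larvae; genes that failed the count filter have no dot. AttD lies at 5.82 in wounded and 1.91 in 24 hr infested libraries. The dots of imd and key lie between -0.056 and 0.36, and only imd at 48 hr (0.27, edgeR adjusted p = 0.0077) was called.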

How the data were processed

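The authors deposited UMI count tables of genes by cells, made from 10X Chromium, inDrops and Drop-seq reads. One table merged 19458 cells of 11 libraries and came with the authors' clusters; the 24 hr and 48 hr Drop-seq tables were filtered here with the limits that the study gives for 10X Chromium (at least 500 UMIs, 200 genes and at most 30% mitochondrial UMIs), since it selected Drop-seq cells by reads per barcode, leaving 6268 and 7035 cells. The submitters' processing notes name Cell Ranger 3.1.0 and SAMtools. For inDrops the authors weighted a read that matched several transcripts by the number of matches. How reads shared by near-identical genes were counted for 10X Chromium and Drop-seq is not given in the sources used here. A further 7 inDrops index columns that no label names were not used. Doublets were not called.

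Deposited counts were summed per library and divided by the library total to give CPM (UMIs per 1000000 UMIs). Sums were tested with edgeR 4.0.16 in R 4.3.3 (quasi-likelihood F test, TMM scaling, low counts filtered, Benjamini-Hochberg adjustment over all genes), with DESeq2 1.42.0 as an alternative; the cecropin sum was tested as an added feature in place of its members. The SE given is the log2 fold change divided by the square root of F. The wounding fit had technology as covariate, and cecropin-high against negative cells had library as block. Nothing says that libraries of a group came from separate cultures beyond separate bleeds, so p-values measure the spread between these libraries. Exact tests and intervals (95%) used scipy 1.17.1, and the edgeR function used for the fits was tested on simulated counts.

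Unwounded and wounded libraries with the same number deviated together: across 8247 genes, the correlation of their deviations from the group means was 0.80 to 0.86, and 0.55 to 0.75 after centring on technology as well. The named genes were the 4 members, called genes of the antimicrobial peptide and Imd lists, the 10 genes with the largest change each way in high cells among those called and of 1 direction in every library, and the 8 genes most correlated with the cecropin sum. The members and lists were chosen with earlier results of these data known.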

Additional observations from a re-analysis of the deposited data

Results flagged for a closer look

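Among the unwounded libraries, replicate 3 stood apart in CecA2 and in CecB, each at 0.334 CPM (2 UMIs) where the other 3 libraries had 0. Replicate 3 was the deepest unwounded library, and the 0s of the others allow 0.704 to 4.81 CPM, so they do not show a lower level. These were 2 of 14 combinations of a gene or sum and a group with 4 libraries that were examined for a value far from the rest. The rule's nominal rate of 1 in 20 does not apply where only 1 library has UMIs.

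For 2 named genes, the difference between cecropin-high and cecropin-negative cells was not the same in infested as in wounded libraries. PGRP-LB was higher in high cells by 4.75 in wounded and by 0.34 in 24 hr infested libraries, a difference of -4.34 ± 0.41 (interaction term, edgeR adjusted p = 0.00012). In infested cells it was at 68.7 to 85.3 CPM in high and 54.3 to 71.6 CPM in negative cells, and in wounded cells at 18.3 to 355 against 1.30 to 10.3 CPM. Glt was lower in high cells in wounded (-0.61) and in infested libraries (-1.71), a difference of -1.06 (adjusted p = 0.0027).

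One barcode of infested replicate 2 at 24 hr, outside the merged table but within the limits on UMIs, genes and mitochondrial share, held 810 cecropin UMIs of 51476. They were 149 of CecA1, 253 of CecA2, 142 of CecB and 266 of CecC, against at most 337 cecropin UMIs in any cell of the merged table.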

How the results depend on the processing

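None of the results carried through these alternatives changed direction. Among the Imd genes not called in cecropin-high cells, 8 had the opposite sign in wounded libraries alone, Tak1 (-0.15) and key (-0.056) among them, and Dredd and ben in infested libraries alone. Of 168 values that answer a comparison, 127 kept their verdict, 36 counts moved by over 1.5 times and 5 lost the call. The wounding rise of the sum was 4.83 without the technology covariate (adjusted p = 0.17) and 3.98 in 10X libraries alone (adjusted p = 1.0), and 4.25 to 4.86 with each library left out. Genes called after wounding numbered 26, against 15 without the count filter, 57 with DESeq2, 113 with the replicate block, 1 without the technology covariate, 0 in 10X libraries, 17 in inDrops libraries, 13 in plasmatocyte clusters and 10 to 28 with each library left out. Leaving out each library gave 7.18 to 9.18 for the 24 hr infested sum (997 to 2370 genes called), -3.33 to -1.41 for 48 hr against 24 hr (1449 to 3737 genes) and 0.42 to 2.31 for the technology interaction. With at least 1 UMI as the limit, a fit that also held unwounded replicates 2 and 3, cecropin-high cells had 2 genes higher and 0 lower. They had 115 lower with at least 5 UMIs, 229 and 180 without the count filter, 306 and 117 in wounded libraries, 12 and 17 in infested libraries, and 71 to 198 and 23 to 106 with each library left out. At 48 hr they had 509 higher with at least 5 UMIs, 512 to 663 higher and 715 to 765 lower with each library left out. The replicate block on the 48 hr and 24 hr libraries, which share only a number (correlations of deviations -0.04, -0.05 and -0.14), gave -2.21 for the sum and called CecB (-1.52, adjusted p = 0.039, edgeR); beside the count of genes after wounding it changed no other call on a cecropin. The cause of these changes was not tested. Unwounded libraries held 2 to 62 cecropin UMIs each, which limits the precision of single members.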

Other observations

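Across the 121 sums of a library and cluster with at least 10 cells (11 libraries), the genes whose level, centred within library, was most like that of the cecropin sum were AttD (Pearson r = 0.67), Tep1, which encodes a thioester-containing protein (0.64), PGRP-SA, a receptor of the Toll pathway (0.64), AttB (0.64), CG43175 (0.61), Mtk (0.61), Irc, an immune-regulated catalase (0.60), and the serpin Spn88Eb (0.58), among 5057 genes compared. Sums of a library share its depth and preparation, and the values are descriptions. Within wounded libraries AttD and Mtk were at 0.82 and 0.81, and within infested libraries at 0.45 and 0.28, whereas Irc was at 0.49 and 0.79. Without PM6 and PM7, CG43175 (0.62), Tep1 (0.62) and Spn88Eb (0.62) stood above AttD (0.48). Among the cecropins themselves, CecA1 and CecA2 were the closest pair (r = 0.89) and CecB and CecC the least close (0.69).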
